A study of Mus musculus with 12 samples.

Results

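Among 12 mice whose frontal cortex was profiled by bulk mRNA sequencing, the transcript level of a single processed pseudogene, Atp6v0c-ps2, fell into a pair of separate ranges, and the mice are described here by which range they fell in. A mouse was called high where Atp6v0c-ps2 stood above 10 CPM (the gene's count over its library total, times 1e+06) and low where it stood below 10 CPM. This put 6 of the 12 mice in the high set and 6 in the low set. The high set held 3 APP/PS1/Hras-/- mice (males 1 and 2 and female 3) and 3 APP/PS1 mice (male 1 and females 1 and 3). The low set held 3 APP/PS1/Hras-/- mice (male 3 and females 1 and 2) and 3 APP/PS1 mice (males 2 and 3 and female 2). Numbers after a sex are names in deposit order and pair no mice.

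All 12 mice carried the APP/PS1 transgenes, a model in which human amyloid precursor protein and presenilin transgenes drive amyloid plaque formation, and all were 9 months old. The study compared 6 mice that also lacked Hras, a small GTPase of the Ras signalling pathway, with 6 that kept it, and each genotype had 3 males and 3 females. Each sex was likewise split evenly, with 3 males and 3 females in the high set and 3 of each in the low set. No mouse without the APP/PS1 transgenes was analysed here, so high and low mice are compared on that background only.

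Atp6v0c-ps2 lies on chromosome 6 (37806086 to 37806550, GRCm38, plus strand) and is an intronless copy of Atp6v0c, the proteolipid subunit of the vacuolar proton pump, on chromosome 17 (24163866 to 24169702, minus strand). Processed pseudogenes arise when an mRNA is reverse transcribed and inserted elsewhere in the genome, and a recent one can differ from its parent at very few bases. Inbred mouse strains differ in which such copies they carry and in long haplotype blocks. Chromosome 17 holds one of the best known of these blocks, the H-2 complex, which encodes the major histocompatibility (MHC) proteins that present peptides to T cells, and its proximal end is where the t haplotypes of mice were mapped. The deposited table holds gene counts and no genotypes, so whether the high and low mice carry different chromosome 17 haplotypes was not tested here at the level of sequence, and the mice are called high and low by the pseudogene alone.

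The annotated sequences of the copies show how little separates them from their parents. In the lines below, each pair gives the same stretch of coding sequence, 5′ to 3′, in the parent on chromosome 17 and in the copy, taken from the GENCODE M21 transcripts on GRCm38, with the bases that differ in capitals. They are shown because, within the shared stretch, such single bases are all that tells the genes of a pair apart; outside it, parent exons that the copy lacks also do.
Atp6v0c: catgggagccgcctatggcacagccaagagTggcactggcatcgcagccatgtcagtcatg
Atp6v0c-ps2: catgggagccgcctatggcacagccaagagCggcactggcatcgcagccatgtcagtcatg
Rps18: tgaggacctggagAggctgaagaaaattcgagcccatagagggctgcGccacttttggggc
Gm10260: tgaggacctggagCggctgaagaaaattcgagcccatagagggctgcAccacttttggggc
Rnps1: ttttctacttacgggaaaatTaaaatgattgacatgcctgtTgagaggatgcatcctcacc
Gm9825: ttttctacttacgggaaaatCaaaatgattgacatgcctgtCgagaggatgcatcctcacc
Positions are counted from 1 at the parent's start codon, with the parent's base first and the copy's base last. Atp6v0c-ps2 matched Atp6v0c at all but 1 of 465 coding bases, the mismatch being T111C. Gm10260 differed from Rps18 at 4 of 456 aligned coding bases, of which A337C and G371A are shown, and the second Rps18 copy, Gm11361, also carried A337C. Gm9825 differed from Rnps1 at 5 of 843 coding bases, T561C and T582C among them. The stretch of Rps18 is spliced in the genome and unbroken in its copy. The sources used here do not give how reads that fit several genes were counted, and every count of a parent or a copy below is uncertain to that extent.

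Atp6v0c-ps2 chose the mice, and its values are given as a description with no test. It stood at 86.5 CPM in APP/PS1/Hras-/- male 1, 71.1 in male 2 and 100.5 in female 3, and at 89.6 in APP/PS1 male 1, 79.8 in female 1 and 72.1 in female 3, all 6 being high mice. In the low mice it stood at 1.19 CPM in APP/PS1/Hras-/- male 3, 1.15 in female 1 and 1.001 in female 2, and at 1.55 in APP/PS1 male 2, 1.51 in male 3 and 1.23 in female 2. The means were 83.3 ± 11.2 CPM in high mice and 1.27 ± 0.213 CPM in low mice (SD, n = 6 each), a ratio of 65.5. The high mouse nearest the threshold had 71.1 CPM and the low mouse nearest it had 1.55 CPM, so no mouse lay close to 10 CPM.

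Library properties were compared between the sets. The RNA integrity number ran from 7.8 to 8.7 in high mice and from 8.2 to 8.7 in low mice, with means of 8.42 ± 0.33 and 8.43 ± 0.18 (SD, n = 6 each; two-sided exact permutation test, p = 1). Total counts ran from 16966339 to 20174131 in high libraries and from 13984692 to 19385509 in low libraries, and were larger in the high set (two-sided exact permutation test, p = 0.0325). Leaving out single libraries moved that p between 0.0065 and 0.0736, and it passed 0.05 without any one of APP/PS1/Hras-/- male 2, male 3, female 1 or female 2 or APP/PS1 male 3, female 1 or female 3. The part of this depth difference in the results below was not tested. On the first principal component, which held 23.9% of the variance, APP/PS1/Hras-/- male 1 of the high set (39.5) and APP/PS1 female 2 of the low set (46.8) stood apart from the other libraries. Hras ran from 19.1 to 23.2 CPM in the 6 APP/PS1/Hras-/- mice and from 74.1 to 100.8 CPM in the 6 APP/PS1 mice, so that no knockout mouse reached the level of any APP/PS1 mouse.

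Across the transcriptome, high and low mice differed at few genes. Most of those called lay on chromosome 17 or were copies of chromosome 17 genes. The edgeR fit with genotype and sex as covariates called 18 of 17307 tested genes at an adjusted p under 0.05, which is 0.104% of them. Of these, 12 were higher in high mice (0.0693%) and 6 were lower (0.0347%), and 563 genes had an unadjusted p under 0.05. Because the mice were set apart by their own counts, these calls describe the sets (called means by edgeR unless another tool is named), and no p-value is given for a gene between them. In 57 genes (0.329%) the CPM of the 6 high mice and the 6 low mice did not overlap, 32 of them higher (0.185%) and 25 lower (0.144%) in high mice. All 18 called genes were among the 57 without overlap. Their sign among APP/PS1/Hras-/- mice, APP/PS1 mice, males and females was thereby fixed and adds nothing.

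Chromosome 17 held 9 of the 18 called genes and 27 of the 57 genes without overlap. That is 1.10% called and 3.31% without overlap among its 815 tested genes, against 9 called (0.0546%) and 30 without overlap (0.182%) among the 16492 genes elsewhere. No other chromosome passed 0.612% without overlap, the value of chromosome 13, which holds 3 of the called copies of chromosome 17 genes.

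**Figure D1:**
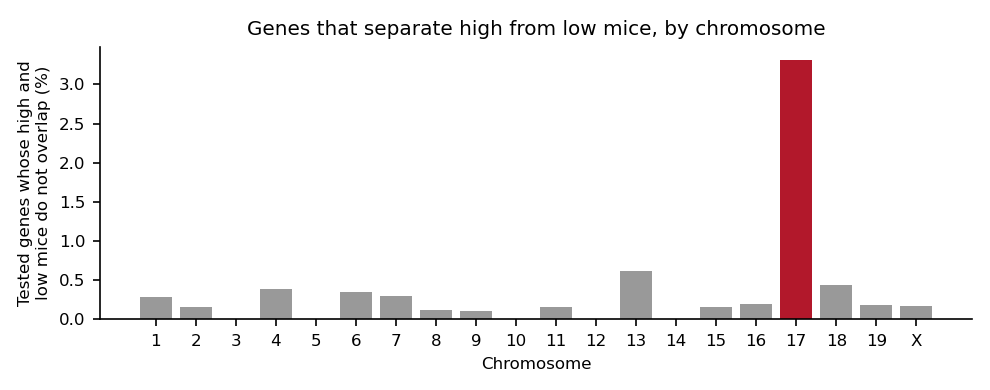
Percent of tested genes on each chromosome whose CPM in the 6 high mice does not overlap that in the 6 low mice. Chromosome 17 (red) stands at 3.31%, and the next highest bar, chromosome 13, stands at 0.612%.

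On chromosome 17 the 9 called genes lay between 23836785 and 35046745 (GRCm38), a span of 11.2 Mb with 282 tested genes. In that span 16 genes (5.67%) showed no overlap, against 11 of 533 (2.06%) on the rest of the chromosome, where edgeR called none. DESeq2 called 15 genes in the span and 8 on the rest of the chromosome, which were Aif1, H2-D1, H2-Q6, A930015D03Rik, H2-T24 and H2-T22 just beyond the span and Mrpl14 and Pot1b farther along, so the extent of the calls depends on the tool. The span was set by the called genes themselves and is a description. Of the 27 chromosome 17 genes without overlap, 21 lay between 20 and 40 Mb. The other 273 tested genes of the span were not called, and the median absolute log2 difference over the whole chromosome was 0.11, against 0.08 over all other genes.

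**Figure D2:**
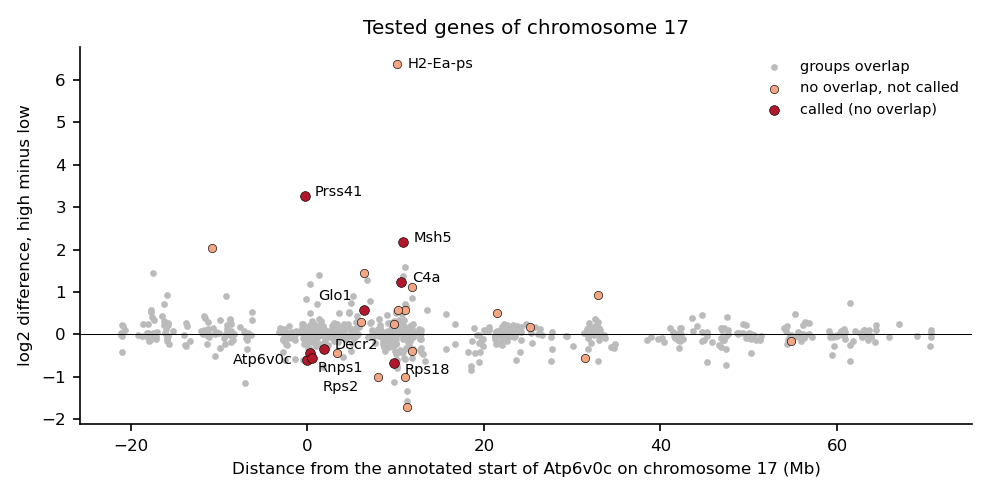
Log2 difference, high minus low, of each tested chromosome 17 gene (vertical axis) by distance in Mb from the annotated start of Atp6v0c (horizontal axis). Called genes (red) run from Prss41 to Msh5 within 11.2 Mb, and genes without overlap but not called (orange) lie mostly in and just beyond that stretch.

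The largest differences among the called chromosome 17 genes were in high mice above low mice. Prss41, a serine protease gene, had 1.59, 1.95 and 2.30 CPM (lowest, median and highest, as for the genes that follow) in high mice and 0.0588, 0.232 and 0.411 CPM in low mice, a log2 difference of 3.25 (SE 0.31). Msh5, which encodes a MutS-family protein needed for meiotic recombination, had 1.89, 3.20 and 4.63 CPM in high mice and 0.384, 0.641 and 1.07 CPM in low mice, a log2 difference of 2.18 (SE 0.28). Both are scarce in cortex, and their read counts summed to 216 (Prss41) and 358 (Msh5) over the high libraries and to 20 and 67 over the low ones.

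C4a and Glo1 were also higher in high mice, at levels well above detection. C4a, the sex-limited protein relative of complement component C4, had 10.6, 11.9 and 13.4 CPM in high mice and 3.69, 5.07 and 6.50 CPM in low mice (log2 difference 1.24, SE 0.13). Its neighbour and nearest relative C4b, which matched it at 95.97% of 5378 aligned bases, had a log2 difference of 0.16 and was not called. C4b averaged 257.4 CPM in high mice and 231.7 CPM in low mice, far above C4a. The C4a counts are therefore uncertain where reads fit both genes. Glo1, the glyoxalase that detoxifies methylglyoxal, had 93.9, 97.3 and 112.5 CPM in high mice and 62.5, 65.9 and 73.2 CPM in low mice (log2 difference 0.57, SE 0.061). In both genes every high mouse lay above every low mouse.

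The other 5 called genes of chromosome 17 were lower in high mice, and 4 of them have a near-identical copy elsewhere that was higher. Rps18, a protein of the small ribosomal subunit, had 71.8, 77.3 and 80.8 CPM in high mice and 115.6, 123.3 and 133.9 CPM in low mice (log2 difference -0.68, SE 0.054). Atp6v0c had 24.1, 26.0 and 32.2 CPM in high mice and 36.8, 41.4 and 46.3 CPM in low mice (-0.60, SE 0.092). Rps2, also of the small ribosomal subunit, had 80.0, 86.4 and 98.9 CPM in high mice and 120.8, 130.7 and 147.2 CPM in low mice (-0.55, SE 0.070). Each of these genes was lower in all 6 high mice than in any low mouse.

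The smallest of the called differences on chromosome 17 were in a splicing factor and a fatty acid enzyme. Rnps1, a component of the exon junction complex, had 68.2, 72.1 and 82.3 CPM in high mice and 94.1, 101.1 and 103.4 CPM in low mice (log2 difference -0.44, SE 0.064). Decr2, a peroxisomal enzyme of unsaturated fatty acid oxidation, had 25.3, 27.6 and 28.4 CPM in high mice and 33.2, 34.8 and 37.9 CPM in low mice (-0.35, SE 0.058). Decr2 is the one gene of these 5 whose nearest other gene was distant in sequence (83.74% identity over 326 bases). With both libraries that lay far out on the principal component removed, 15 genes were called, and Atp6v0c, Decr2 and Mpp7 were not. Leaving out single mice also ended calls. Atp6v0c was not called without any one of APP/PS1/Hras-/- male 2, male 3 or female 1 or APP/PS1 male 2, male 3, female 1 or female 3, and Rnps1 not without any one of APP/PS1/Hras-/- male 3 or female 1 or APP/PS1 male 2, male 3 or female 1. Decr2 was not called without any one of 10 of the 12 mice, the exceptions being APP/PS1 male 1 and female 2.

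Outside chromosome 17, 8 of the 9 called genes were near-identical copies of chromosome 17 genes, and all 8 were higher in high mice. Besides Atp6v0c-ps2 itself they were copies of Rps18 (Gm10260 and Gm11361, chromosome 13), Rnps1 (Gm9825, chromosome 6), Rps2 (Rps2-ps10, chromosome 18, and Gm6311, chromosome 13), Glo1 (Gm13443, chromosome 2) and Hmga1 (Hmga1b, chromosome 11). Identity to the chromosome 17 gene ran from 98.86% for Gm6311 to 99.81% for Hmga1b. These 8 include the marker that set the mice apart. Most of the others had few counts in low mice and passed the filter on low counts through the high mice. Their number and direction are therefore descriptions. Of 638 tested processed pseudogenes, 21 had their nearest coding gene inside the 11.2 Mb span and 20 elsewhere on chromosome 17. Gm10260, Gm11361 and Hmga1b are annotated as protein-coding, and the share of such copies among protein-coding genes was not counted.

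Among the copies of Rps18 and Rnps1, low mice had few counts. Gm10260 had 33.1, 34.4 and 36.7 CPM in high mice and 0.143, 0.435 and 0.825 CPM in low mice, a log2 difference of 6.23 (SE 0.21). Gm11361 had 13.4, 15.2 and 17.2 CPM in high mice and 0.512, 0.686 and 1.07 CPM in low mice (4.45, SE 0.15). Gm9825 had 12.3, 13.6 and 16.6 CPM in high mice and 0.125, 0.166 and 0.320 CPM in low mice (6.20, SE 0.19). In these 3 genes the lowest high mouse stood more than 10 CPM above the highest low mouse.

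Rps2-ps10, Gm13443, Gm6311 and Hmga1b completed the set. Rps2-ps10 had 6.79, 8.45 and 10.5 CPM in high mice and 951 counts over the 6 libraries, against 6 counts over the 6 low libraries. Gm13443 had 6.48, 7.92 and 10.1 CPM in high mice and 0, 0.167 and 0.312 CPM in low mice (log2 difference 5.75, SE 0.37). Hmga1b, a copy of the gene for the chromatin protein HMGA1, differed less, with 11.7, 12.3 and 15.7 CPM in high mice and 3.58, 4.33 and 4.86 CPM in low mice (1.63, SE 0.11). Gm6311 was the scarcest, with 126 counts over the high libraries and 14 over the low ones (2.93, SE 0.33).

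**Figure D3:**
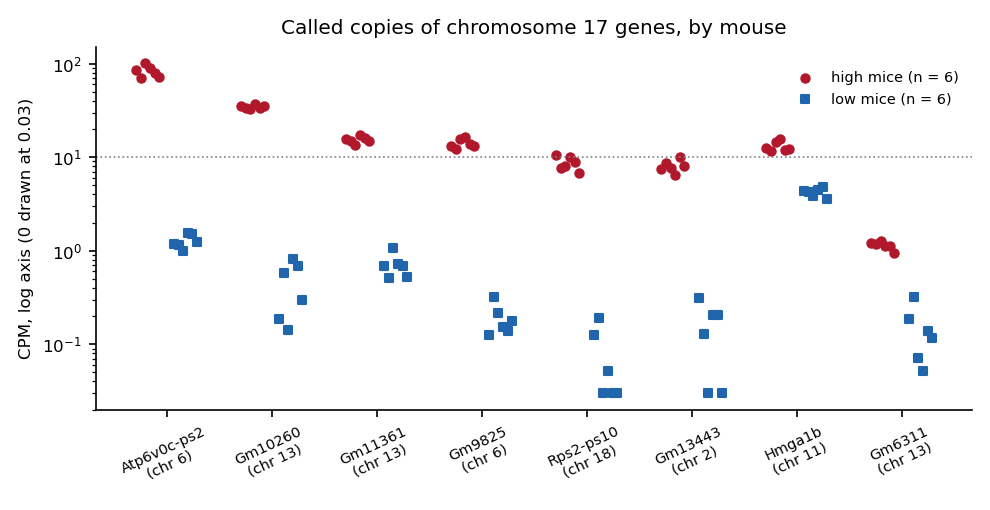
CPM on a log axis of the 8 called copies of chromosome 17 genes in each high mouse (red circles) and low mouse (blue squares), with values of 0 drawn at 0.03 and the 10 CPM threshold dotted. The sets do not overlap in any of the 8, and the narrowest gap is in Hmga1b and Gm6311.

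The 5 genes whose log2 CPM followed Atp6v0c-ps2 most closely over the 12 libraries were all among these copies, namely Gm9825 (Pearson r = 0.997), Gm10260 (0.996), Rps2-ps10 (0.995), Gm11361 (0.993) and Gm13443 (0.992). These values describe the separation of the same pair of sets and carry no test. The one called gene outside chromosome 17 that is no such copy was Mpp7 on chromosome 18, a membrane-associated guanylate kinase family scaffold of cell polarity. Mpp7 had 3.63, 4.39 and 5.27 CPM in high mice and 6.01, 7.21 and 8.17 CPM in low mice (log2 difference -0.68, SE 0.11), and it lost its call under 16 of 28 alternative settings, the most of any called gene. It kept its call with 1 mouse left out only where that was APP/PS1/Hras-/- male 1.

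All tested processed pseudogenes were then sorted by the position of their nearest protein-coding gene. Of 638 tested, 21 had their nearest coding gene inside the 11.2 Mb span. The 5 that were called are the marker Atp6v0c-ps2 itself and Gm9825, Gm13443, Rps2-ps10 and Gm6311. The last 4 stood near 0 in low mice and passed the filter on low counts through the high mice, and the span was drawn from the same calls, so their number supports nothing and is not set against other pseudogenes. Of the 21, 6 showed no overlap, namely the 5 called and Rps2-ps13, which was named after its values were seen. Rps2-ps13 averaged 0.824 CPM in high mice and 0.132 CPM in low mice, and DESeq2 called it where edgeR did not. In the rest of the 21 the sets overlapped, as in the examples that follow. Rps10-ps2 averaged 23.9 CPM in high mice and 23.4 CPM in low mice, and Rab11b-ps2 averaged 13.7 CPM in high mice and 13.4 CPM in low mice.

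Each parent was then added to its copies in the 6 families that held a called copy. The copies were higher in high mice by that choice, and the sums are descriptions. For each family, copies were all genes that matched the parent at 95% identity or more over 300 bases or more. The Rps18 family summed to 127.5 ± 5.6 CPM in high mice and 125.7 ± 6.4 CPM in low mice (SD, n = 6 each), and the sets overlapped. Within it the difference, high minus low, was -46.9 CPM for the parent and 48.7 CPM for the copies, and the copies made up 39.3% of the sum in high mice and 1.10% in low mice. The Hmga1 family likewise overlapped, at 33.1 ± 3.9 CPM in high mice and 31.5 ± 2.4 CPM in low mice.

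The Rnps1 family summed to 88.0 ± 7.5 CPM in high mice and 100.6 ± 3.3 CPM in low mice, with overlap, and the Rps2 family to 103.0 ± 9.5 CPM in high mice and 133.7 ± 9.3 CPM in low mice, without overlap. In both the copies gained less than the parent lacked. The Atp6v0c family is a description only, since its single counted copy is Atp6v0c-ps2, the gene that set the mice apart, and its direction and lack of overlap follow from that choice. Its sum was 110.7 ± 14.1 CPM in high mice and 43.0 ± 3.9 CPM in low mice, without overlap, with a difference of -14.3 CPM for the parent and 82.0 CPM for the copies. The Glo1 family summed to 107.4 ± 6.4 CPM in high mice and 67.2 ± 4.5 CPM in low mice, without overlap. Here parent and copy were both already called higher without overlap, so the higher sum follows from the calls.

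**Figure D4:**
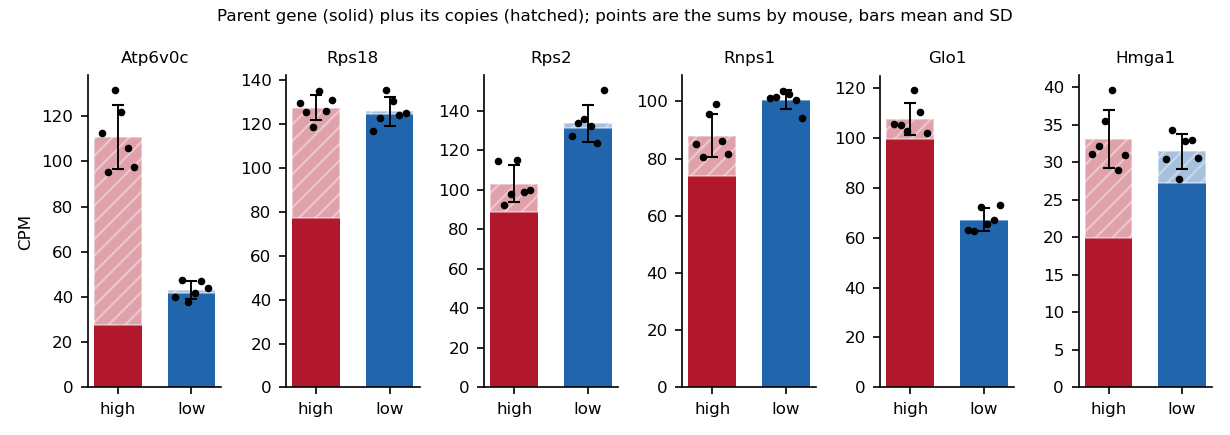
Mean CPM of the parent gene (solid) and of its copies (hatched) stacked for high mice (red) and low mice (blue), with points for the sum in each mouse and bars for its SD (n = 6 each). The sums overlap between the sets for Rps18, Rnps1 and Hmga1 and do not overlap for Atp6v0c, Rps2 and Glo1.

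The vacuolar proton pump, to which Atp6v0c belongs, acidifies lysosomes and synaptic vesicles. Of the 18 tested subunit genes, 10 had a positive and 8 a negative log2 difference, with a median of 0.02, against 0.01 over all 17307 genes. Of these, Atp6v0c was called by edgeR and by DESeq2, and no other subunit by either, against 0.104% of all genes called by edgeR. Atp6v0c matches the marker at all but 1 of 465 coding bases and may share its reads. Its call is therefore a description.

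Glo1 lies beside Btbd9 and Dnah8, and in some inbred strains these genes share a duplicated segment. Whether these mice differ in that segment was not tested. All 5 tested genes of this neighbourhood had positive differences, against 52.8% of all tested genes. In 3 of them, Glo1, Btbd9 and Dnah8, the sets did not overlap, against 0.329% of all tested genes. The list was drawn around Glo1, itself a called gene, so these counts are a description and support nothing. The median of 0.43, against 0.01 over all genes, is the value of Mdga1 (SE 0.39), whose sets overlapped. Btbd9, a BTB-domain protein gene, had 108.0, 119.1 and 124.8 CPM in high mice and 92.8, 98.0 and 104.4 CPM in low mice (log2 difference 0.28, SE 0.057). Dnah8, an axonemal dynein heavy chain gene, had 1.27, 1.98 and 2.38 CPM in high mice and 0.342, 0.731 and 0.999 CPM in low mice (1.45, SE 0.25). Both were called by DESeq2 and neither by edgeR, and both were named after their values were seen.

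The H-2 complex lists were read by the sign of their members' differences, which was positive for 52.8% of all tested genes. Of 24 tested genes of class I presentation, 16 of them on chromosome 17, 18 had negative differences and the median was -0.15. None was called by edgeR and 2 showed no overlap, against 0.104% called and 0.329% without overlap among all tested genes. DESeq2 called 5 of the 24, against 36 of all 17307 genes. They were H2-D1, H2-K1, H2-T22 and H2-Q6, lower in high mice, and H2-T24, higher. H2-D1, a classical class I heavy chain, had 25.5, 35.4 and 52.0 CPM in high mice and 60.5, 70.0 and 105.5 CPM in low mice (log2 difference -1.004, SE 0.19). H2-T22, a non-classical class I gene, had 21.4, 23.4 and 24.7 CPM in high mice and 27.8, 30.7 and 34.4 CPM in low mice (-0.40, SE 0.071). H2-K1, named after its values were seen, had 19.1, 23.5 and 34.1 CPM in high mice and 30.7, 41.5 and 54.5 CPM in low mice, and the sets overlapped. Class I genes are close relatives that differ between haplotypes, so their counts are uncertain.

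Class II genes were spread widely within each set. Of 10 tested members, 3 had positive and 7 negative differences (median -0.27), and none was called by edgeR or DESeq2 or lacked overlap. H2-Ea-ps, the alpha chain gene of the E molecule, which is not transcribed in mice of the H-2b haplotype, is no member of that list and was named after its values were seen. It had 65 counts over the 6 high libraries, between 3 and 21 in each, and 0 counts over the 6 low libraries. Against a floor of 3 counts over the low set it was at least 18.6-fold higher in high mice. H2-Ea-ps was called by DESeq2 and not by edgeR, and the H-2 haplotypes of these mice were not tested. Of 38 tested class III genes, 33 had positive differences (median 0.14). C4a and Msh5 were called by edgeR, against 0.104% of all tested genes. Aif1, the gene for the microglial protein IBA1, was called by DESeq2 and not by edgeR, and its sets did not overlap, with 10.5, 12.5 and 13.4 CPM in high mice and 5.50, 8.22 and 10.3 CPM in low mice (log2 difference 0.57, SE 0.11).

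Microglial and immune gene lists outside the complex separated the sets no further. Of 19 genes of plaque-associated microglia 15 had positive differences (median 0.16), and of 16 type I interferon response genes 13 had negative ones (median -0.10), with none called in either. Apoe, the lipid carrier induced in such microglia, had 1112, 1258 and 1340 CPM in high mice and 924, 1096 and 1354 CPM in low mice. Trem2, the microglial lipid receptor gene, lies on chromosome 17 outside the 11.2 Mb span and had 32.3, 45.6 and 78.6 CPM in high mice and 25.6, 49.7 and 64.2 CPM in low mice, with overlap. Homeostatic microglia genes had positive differences in 9 of 10 (median 0.08), none called. In bulk tissue, fewer cells of a type and less RNA per cell cannot be told apart.

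Markers of tissue beside the cortex varied widely between mice of both sets. All 12 choroid plexus markers had negative differences (median log2 -1.35), none called, and their summed level ran from 175 to 1011 CPM in high mice and from 273 to 4949 CPM in low mice. The top value is that of APP/PS1 female 2, and without that mouse the low mice ran from 273 to 1058 CPM, 7 of the 12 markers had positive differences and the median was 0.02. Their defining marker Ttr ran from 3.52 to 486 CPM in high mice and from 27.6 to 2894 CPM in low mice, with a difference in mean log2(CPM + 0.5) of 0.61 in males and -4.49 in females. Of 12 striatal markers, 10 had negative differences, with sums of 292 to 838 CPM in high mice and 393 to 1050 CPM in low mice, and of 12 leptomeningeal markers 9 had positive ones, with sums of 143 to 204 CPM in high mice and 103 to 253 CPM in low mice. All 10 oligodendrocyte markers were negative (median -0.10) and all 10 astrocyte markers positive (median 0.06), and 15 of 18 immediate early genes were negative (median -0.22), with none called in any of these lists. Without APP/PS1 female 2 the medians were -0.23 for oligodendrocyte markers, 0.09 for astrocyte markers and -0.33 for immediate early genes. The leptomeningeal median was 0.24 with that mouse and 0.44 without it, and the striatal median -0.24 with it and -0.16 without it. Inhibitory neuron, oligodendrocyte precursor, endothelial and mural, and blood markers had medians of -0.06, 0.14, -0.01 and -0.32, again with none called. Cortical excitatory neuron markers, which check the labelled tissue, summed to 1617 to 1992 CPM in high mice and 1384 to 1807 CPM in low mice. The part of these tissue markers in the differences above was not tested.

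The study's own comparison was refitted with the sets taken into account. With the split and sex as covariates, 3 of 17307 genes (0.0173%) differed between APP/PS1/Hras-/- and APP/PS1 mice in edgeR's quasi-likelihood test, and the same 3 did so without the split. They were Hras (log2 difference -1.955, SE 0.074, adjusted p = 7.67e-09), its neighbour Lrrc56 (0.91, SE 0.10, adjusted p = 0.00363) and Gm5905 (6.70, SE 0.18, adjusted p = 1.77e-10). Within high mice 2 genes differed by genotype (0.0116%) and within low mice 4 (0.0231%), Hras and Gm5905 in both. Within high mice Hras had a log2 difference of -1.93 (SE 0.11) and within low mice -1.98 (SE 0.11), and the interaction between genotype and set was 0.04 (SE 0.16, edgeR adjusted p = 0.971).

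The interaction between genotype and set was called for 2 of 17307 genes (0.0116%), both on proximal chromosome 17 outside the span of the called genes. AC166110.4, a long intergenic RNA at 13330748 to 13333842, had 6.74, 5.98 and 7.04 CPM in the 3 high APP/PS1/Hras-/- mice and 6.90, 5.67 and 5.30 CPM in the 3 high APP/PS1 mice. It had 0.0625, 0 and 0 CPM in the 3 low APP/PS1/Hras-/- mice, a single count in all, and 4.85, 4.997 and 5.29 CPM in the 3 low APP/PS1 mice. The interaction was 7.54 on the log2 scale (SE 0.53), and the 3 low knockout mice were the ones that stood apart. AC166110.4 lies on chromosome 17 and was itself among the genes without overlap between the sets, which were drawn from these counts. Its interaction is therefore a description, and no p is printed.

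Ccr6, a chemokine receptor gene at 8236043 to 8257141, had 0.987, 1.18 and 1.27 CPM in high APP/PS1/Hras-/- mice and 0.530, 0.760 and 1.04 CPM in high APP/PS1 mice. It had no count in any of the 3 low APP/PS1/Hras-/- mice and 1.08, 1.16 and 1.70 CPM in the 3 low APP/PS1 mice. Against a floor of 3 counts over the low knockout mice, it was at least 20.0-fold higher in low APP/PS1 mice. The fitted interaction was 8.40 (SE 0.88), again a description with no p printed. That value depends on the prior count because one group is at 0. The interaction call of one gene or the other was lost, leaving 1 call, when APP/PS1 male 1, male 3, female 1 or female 2 or APP/PS1/Hras-/- female 3 was left out, and the count was 5 without APP/PS1/Hras-/- female 1.

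A pair of pseudogenes nearer the end of the chromosome had a like pattern and were named after their values were seen. Tmem181b-ps (6438524 to 6467022) had 183.8, 283.6 and 192.5 CPM in high APP/PS1/Hras-/- mice, 164.0, 177.3 and 174.7 CPM in high APP/PS1 mice, 97.5, 78.1 and 105.6 CPM in low APP/PS1/Hras-/- mice and 176.9, 181.7 and 185.1 CPM in low APP/PS1 mice. Tmem181c-ps (6613753 to 6639790) had 23.3, 45.9 and 19.8 CPM, 20.6, 21.0 and 18.7 CPM, 0.375, 4.93 and 0.429 CPM, and 21.6, 27.1 and 23.5 CPM in the same 4 groups. Neither was called for the interaction by edgeR. In both genes APP/PS1/Hras-/- male 2 was the highest of the 12 mice and the 3 low knockout mice were the lowest. Because the 4 groups hold 3 mice each and the relatedness of the mice is unknown here, litter cannot be told apart from genotype and set for these genes.

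**Figure D5:**
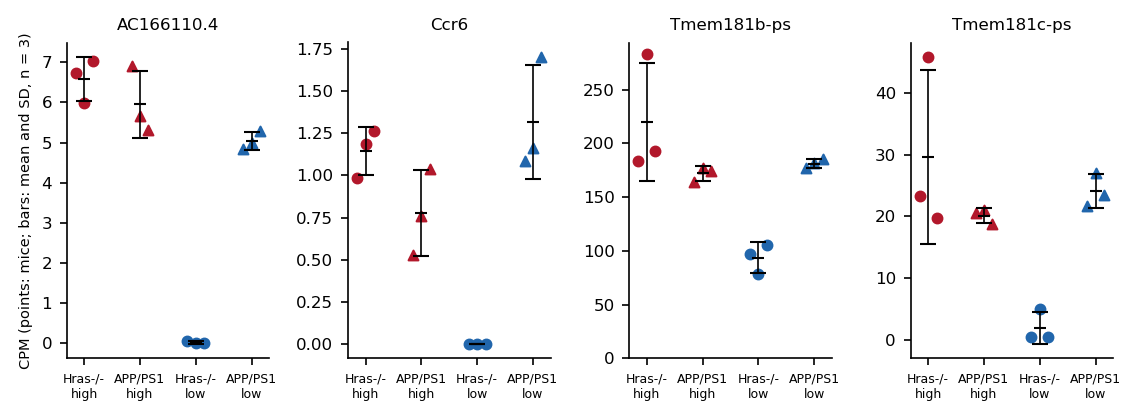
CPM of 4 genes of proximal chromosome 17 in each mouse, grouped by set and genotype (circles APP/PS1/Hras-/-, triangles APP/PS1; red high, blue low), with mean and SD bars (n = 3 each). The 3 low APP/PS1/Hras-/- mice lie below all other mice in each panel, at 0 counts for Ccr6 and 1 count in all for AC166110.4.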

How the data were processed

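The deposited table holds raw counts per gene for the 12 libraries, per the file headers; TruSeq Stranded mRNA libraries were made from kit-extracted frontal cortex RNA, per the labels. Tools listed, per the submitters' processing notes, are featureCounts, HISAT2 2.1.0, Trimmomatic 0.33 and FastQC 0.11.7, with the builds mm10 and mm9. Strand setting, handling of multi-mapping reads and annotation release: not given in the sources used here.

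Gene identifiers were matched to GENCODE M21 (37 of 54532 unmatched). Mice were set apart by Atp6v0c-ps2 at 10 CPM. The members, lists and tests were chosen with earlier results of these data known. Counts were fitted with edgeR 4.0.16 in R 4.3.3 (TMM, filterByExpr, robust quasi-likelihood test, Benjamini-Hochberg over 17307 genes), with genotype and sex, or set and sex, as covariates; the interaction came from a model of the genotype-by-set means. Called means an adjusted p under 0.05. Levels are count over library total. The sets were drawn from the same counts, so no p-value of high against low is printed for any gene. None of the interaction is printed for a chromosome 17 gene. Standard errors come from the F statistic. Exact permutation tests covered RIN and total counts. Similarity between transcripts came from blastn 2.17.0. Named genes were the marker, Hras, the called genes, called or leading members of the lists of the region, genes called for the interaction and the 5 genes most like the marker; the text marks genes picked later, from their values. The fit was run on simulated counts with known differences between the given sets. Such a run cannot speak to the choice of the sets from the counts or to reads shared between parents and copies. Separate cultures or cages are not stated, and p-values measure the spread between these mice. Floors cover counting error only. Other tools were DESeq2 1.42.0 and limma 3.58.1.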

Additional observations from a re-analysis of the deposited data

Results flagged for a closer look

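In 3 of 58 sets of 6 mice examined, 1 mouse lay far from the others, where chance gives about 1 in 20. Glo1 stood at 112.458 CPM in APP/PS1 male 1 among high mice, with the next mouse at 100.273 CPM. Rnps1 stood at 94.0699 CPM in APP/PS1 female 2 among low mice, with the next at 100.414 CPM, and this library was also the farthest out on the first principal component. Decr2 stood at 25.3128 CPM in APP/PS1/Hras-/- male 2 among high mice, with the next at 27.2978 CPM. In edgeR's fit the interaction of genotype and set was 7.54229 on the log2 scale for AC166110.4 and 8.39845 for Ccr6. Both values rest on the 3 low APP/PS1/Hras-/- mice, which held 1 count of AC166110.4 in all and 0 of Ccr6. Litter cannot be told apart from genotype and set for these genes.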

How the results depend on the processing

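No paired analysis was possible because the labels carry no replicate numbers shared between groups. The 18 calls between high and low mice became 36 with DESeq2 (23 on chromosome 17, 14 of these not called by edgeR, H2-D1 and H2-K1 among them), 33 with no filter on low counts, 7 within males, 7 within females and 10 within APP/PS1/Hras-/- mice, the last 3 with fewer mice. The genotype calls with the split as covariate became 7 with DESeq2 and 7 with no filter, those of the interaction 6 and 721, those within high mice 14 and 260, and those within low mice 12 and 475; within low mice they were 7 without the 2 libraries apart on the first principal component, an alternative chosen after seeing the data. Leaving out 1 mouse gave 14 to 21, 3 to 4, 1 to 5, 2 to 5 (5 without APP/PS1/Hras-/- female 1) and 4 to 6 calls for these 5 comparisons, a RIN difference of -0.0733 to 0.107 and a total count difference of 1943480 to 3023640. The 18 called genes kept their sign under all 28 alternatives run, and 7 kept their call under all. All 18 showed no overlap, which left their sign little room to change. The 7 were the marker Atp6v0c-ps2 and the copies Gm10260, Gm11361, Gm9825, Gm13443, Rps2-ps10 and Hmga1b, with no chromosome 17 gene among them. Marker thresholds of 5 and 20 CPM gave the same sets, and an adjusted p under 0.1 could not end a call. Mpp7 lost its call 16 times, Decr2 15, Atp6v0c 12 and Rnps1 9. The differences of Apoe (-0.013, females only), Lgals3 (-0.23 in females only, -0.083 in APP/PS1 mice only) and Ccr6 (-0.96, APP/PS1 mice only) changed sign. The causes were not tested. Genes of few counts, such as Prss41, Gm6311 and H2-Ea-ps, are limited by depth.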
